A study of Drosophila melanogaster with 9 samples.

Results

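Chromosome 4 of Drosophila melanogaster is a small autosome whose genes lie among repeats in chromatin that carries heterochromatin marks, yet many of them are actively transcribed. The chromosome-specific protein Pof binds nascent transcripts from it and raises its output, and the histone methyltransferase egg and the heterochromatin protein HP1a act on the same chromosome. Its genes include developmental transcription factors, signalling ligands and receptors, and large neuronal and muscle genes. O-GlcNAc is a sugar placed on nuclear and cytoplasmic proteins, chromatin proteins among them, by the enzyme encoded by sxc, a Polycomb group gene, and taken off by the enzyme encoded by Oga.

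A list of 50 genes of chromosome 4 was followed, of which 43 had a probe set assigned to that gene alone, out of 11982 genes tested. All 43 lie on chromosome 4 in the RefSeq gene table. The list was drawn up with earlier results of these arrays known, and the probe set of a gene was chosen by its mean level over the 9 arrays, the highest being kept. The members pan, pho, lgs, PlexA, CaMKII, PIP4K and Arl4 were not analysed here. A further 22 genes of chromosome 4 were tested and are not on the list.

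The arrays, of the Affymetrix Drosophila_2 type, came from 3 genotypes, an OGA mutant, an SXC mutant and wild type, with 3 arrays of each. The labels give no allele, strain background, tissue, sex, age or treatment, and whether the replicates were separate animals or cultures is not stated, so p-values rest on a spread that may be technical. Levels are log2 values of a probe set, which can be compared between arrays but not between genes, and the number of arrays limits their precision. A gene was called when its limma p-value, adjusted by Benjamini-Hochberg over all 11982 genes, was under 0.05.

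Both genotype labels were matched by the gene they name. Oga read 8.88, 8.90 and 8.75 in the OGA mutant, against 10.13, 9.68 and 9.88 in wild type (log2 −1.05 with SE 0.10, limma adjusted p = 0.00698), and sxc read 10.36, 10.32 and 10.36 in the SXC mutant, against 11.84, 11.87 and 11.79 in wild type (log2 −1.49 with SE 0.06, adjusted p = 2.81e-07). Markers were used to describe the unnamed tissue. Of 9 measured female germline markers, vas, bam and otu lay under the 25th percentile of all genes (5.19), whereas the rest, aub and grk among them, did not. Of 10 testis and accessory gland markers 9 lay under it. None of the 9 haemocyte markers lay under it, and NimC1 read 12.63 to 12.94 over the 9 arrays. Few markers of other types did either: 1 of 9 for follicle cell, 1 of 8 for muscle, 1 of 8 for neuron, 1 of 6 for fat body and 2 of 5 for photoreceptor. The count under this low cut thus tells these cell types apart poorly. The levels themselves differed more. Means over the 9 arrays ran from 9.29 (PPO1) to 14.14 (He) for the haemocyte markers. The highest mean was 8.24 for neuron (elav), 7.45 for fat body (Yp3) and 7.4 for follicle cell (Cp38). It was 7.28 for muscle (Tm2), 7.18 for photoreceptor (chp) and 5.3 for testis and accessory gland (Acp62F). The germline genes grk (11.32), aub (11.07) and CycB (10.99) lay within the haemocyte range. As levels cannot be compared between genes, these means are a description only. Single markers of several cell types passed in the SXC mutant. Higher were the haemocyte gene eater (log2 0.57), the germline gene grk (0.40) and the muscle gene up (0.43). The gene up was the muscle marker that lay under the 25th percentile. Lower were the haemocyte genes Pxn (−0.51) and PPO2 (−0.81), the germline gene png (−0.69), the photoreceptor gene Arr2 (−0.53) and the neuronal gene elav (−0.35). The haemocyte list's summed level overlapped between groups (15.74 to 15.84 in the SXC mutant and 15.75 to 15.86 in wild type). The fat body, follicle cell and testis sums overlapped too. The SXC sums lay above all wild-type sums for female germline (12.84 to 12.87 against 12.77 to 12.8) and muscle (8.87 to 9.13 against 8.76 to 8.84). A sum adds unlogged values, so the brightest markers weigh most in it. By gene, 5 of 9 germline changes were positive, with a median of 0.01 on the log2 scale. Of the muscle changes 6 of 8 were positive, with a median of 0.10. The SXC sums lay below all wild-type sums for neuron (9.57 to 9.65 against 9.67 to 9.78) and photoreceptor (8.25 to 8.33 against 8.37 to 8.66). By gene, 4 of 8 neuron changes were positive, with a median of −0.02. Of the photoreceptor changes 0 of 5 were positive, with a median of −0.09. Only elav and Arr2 were called in these lists. The part of this in the results below was not tested. In bulk RNA, fewer cells of a type and less RNA per cell cannot be told apart.

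Against wild type, part of the chromosome 4 list was raised in the SXC mutant. The test called 10 of the 43 measured members higher and 0 lower, while 33 missed the threshold; 34 of 43 changes were positive, with a median of 0.19 on the log2 scale. The risers were yellow-h, unc-13, Pur-alpha, Thd1, CG11155, CG31999, mav, Ephrin, CG1674 and MED26, by 1.16-fold to 2.64-fold. Over all genes tested 12.9% were called in either direction, 5.09% higher and 7.84% lower, and the median change was −0.01. Without adjustment, 21 members were higher and 0 lower at a p under 0.05 (48.8%), where 26.1% of all genes passed, 1316 higher and 1808 lower. On 20 members the SXC arrays lay above all wild-type arrays, on 1 (zfh2) below them, and on 22 the groups overlapped, where 32.7% of all genes did not overlap.

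The number of members called was 6 without SXC mutant replicate 1, 4 when variances were not moderated, 18 with array quality weights, and 6 when the trend of the change on gene length was removed. Members are long genes, with a median length of 11568 bp against 2263 bp over all genes, and across 11893 genes the SXC change and log2 length had a correlation of 0.18, given as a description since genes share the arrays. The median over members was 0.11 with the mean of all probe sets of a gene and 0.0561 with its dimmest probe set. With the length trend removed it was 0.15 and the calls of CG11155, CG31999, Ephrin, mav, unc-13 and yellow-h stood. Of 5 control pairs for RNA quality, 1 separated this genotype from wild type. The second GAPDH pair had 3′ minus 5′ differences of 3.29, 2.74 and 2.78 in the SXC mutant, against 1.79, 2.31 and 2.04 in wild type. The first GAPDH pair overlapped (1.24, 1.12 and 1.08 against 0.91, 0.95 and 1.12), as did the rest. A difference in RNA quality and one in the GAPDH transcript cannot be told apart here. The part of RNA quality in the result was not tested.

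**Figure D1:**
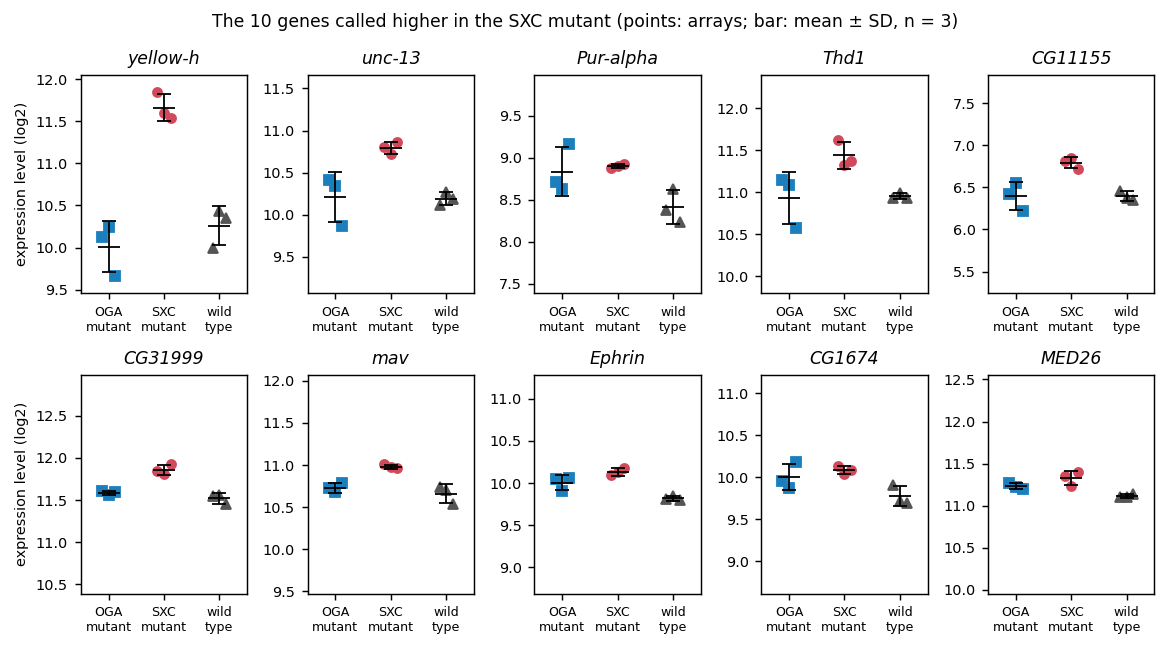
Log2 expression level (vertical axis, same span of values in each panel) of the 10 called members on the 3 arrays of the OGA mutant, SXC mutant and wild type. Points are arrays and the bar is the mean ± SD (n = 3); in every panel the SXC points lie above all wild-type points, by the widest margin for yellow-h.

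The widest difference among the members was that of yellow-h, a gene of the yellow family, whose founding member is needed for cuticle pigment. It read 10.12, 10.24 and 9.67 in the OGA mutant, 11.85, 11.59 and 11.54 in the SXC mutant, and 9.999, 10.44 and 10.35 in wild type. All SXC arrays were above all other arrays, and the OGA and wild-type arrays overlapped. The level was 11.66 ± 0.16 in the SXC mutant and 10.26 ± 0.23 in wild type (SD, n = 3 each), a 2.64-fold rise (log2 1.40 with SE 0.15, limma adjusted p = 0.000707). Over 20 alternative settings the call was kept and the log2 change ranged from 1.26 to 1.49.

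Zip102B and apolpp stood in the same role group of transport and secreted proteins. The zinc transporter gene Zip102B read 10.22, 10.22 and 10.38 in the SXC mutant, against 10.31, 10.44 and 10.40 in wild type (log2 −0.11, adjusted p = 0.449). The gene apolpp, which encodes the apolipophorin of the haemolymph lipid carrier, read 8.98, 9.02 and 8.79 in the SXC mutant, against 8.80, 8.63 and 8.41 in wild type (log2 0.32 with SE 0.13, adjusted p = 0.152). In both genes the arrays of these groups overlapped.

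Among the genes of synapses and secretion, 1 of 5 measured members rose. It was unc-13, which encodes the protein that primes synaptic vesicles for fusion. It read 10.42, 10.35 and 9.87 in the OGA mutant, 10.80, 10.72 and 10.86 in the SXC mutant, and 10.11, 10.27 and 10.18 in wild type. The SXC arrays did not overlap with those of the other groups, and the rise over wild type was 1.52-fold (log2 0.60 with SE 0.12, limma adjusted p = 0.00956). This call ended in 1 of 20 alternatives, where variances were not moderated (adjusted p = 0.0713).

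Caps, now named Cadps, encodes the calcium-dependent activator of dense-core vesicle release. Its level was 7.25, 6.40 and 6.23 in the SXC mutant, against 5.74, 5.96 and 6.14 in wild type, and the log2 difference of 0.68 (SE 0.21) did not pass (adjusted p = 0.0557). SXC mutant replicate 1 was far above the other SXC arrays for this gene. Slip1, named for binding the Slo potassium channel, had a log2 difference of 0.27 (adjusted p = 0.0710), and the calsyntenin gene Cals one of 0.23 (adjusted p = 0.178). In both, all SXC arrays were above all wild-type arrays. Syt7, a synaptotagmin gene, read 4.13 to 4.37 on the SXC and wild-type arrays, and the groups overlapped. Of 8 measured neuronal markers 0 rose in limma, 1 fell, and 0 were higher at an unadjusted p under 0.05. For futsch all SXC arrays lay above all wild-type arrays (log2 0.17, limma adjusted p = 0.252). ChAT lay under the 25th percentile of genes and others were dim, which limits what they can show. Any part of neuronal content in these changes was not tested. The gene that fell was elav, which encodes a neuronal RNA-binding protein, at 8.01, 7.79 and 7.98 in the SXC mutant, against 8.36, 8.26 and 8.21 in wild type (adjusted p = 0.0462).

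In the group of chromatin and transcription regulators 3 of 4 measured members rose. Thd1, now named Tdg, encodes thymine DNA glycosylase, a base excision repair enzyme. It read 11.14, 11.08 and 10.57 in the OGA mutant, 11.62, 11.32 and 11.38 in the SXC mutant, and 10.93, 10.99 and 10.94 in wild type, with the SXC arrays above all others. The rise over wild type was 1.40-fold (log2 0.49 with SE 0.13, adjusted p = 0.0343).

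Pur-alpha encodes a protein that binds purine-rich single-stranded nucleic acid. Its values were 8.71, 8.63 and 9.16 in the OGA mutant, 8.88, 8.90 and 8.92 in the SXC mutant, and 8.37, 8.63 and 8.24 in wild type. Both mutants lay on the high side of wild type for this gene, although the lowest OGA and the highest wild-type value both round to 8.63. The SXC difference was called (log2 0.49 with SE 0.13, adjusted p = 0.0329) and the OGA difference was not (0.42 with SE 0.13, adjusted p = 0.975). The test of one mutant against the other did not pass either (log2 −0.07, adjusted p = 0.789).

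MED26, a subunit gene of the Mediator complex, gave the smallest called rise, 1.16-fold. Its level was 11.36, 11.23 and 11.40 in the SXC mutant, against 11.10, 11.11 and 11.14 in wild type (log2 0.21 with SE 0.06, adjusted p = 0.0490). Hcf encodes the host cell factor, whose human counterpart is a substrate of O-GlcNAc transferase. Its probe set read 4.49, 4.54 and 4.75 in the SXC mutant, against 4.63, 4.48 and 4.68 in wild type, under the 25th percentile of genes, so little can be read from it.

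The calls of these regulators were close to the threshold, while the size of the changes was kept. Over 20 alternatives the log2 change was 0.39 to 0.55 for Thd1, 0.38 to 0.60 for Pur-alpha and 0.17 to 0.26 for MED26. The MED26 call ended in 13 of 20 alternatives (adjusted p from 0.0291 to 0.148), among them each single-array omission other than that of SXC mutant replicate 2 and OGA mutant replicate 3. Thd1 lost its call without any single SXC or wild-type array, with unmoderated variances and after removal of the length trend (adjusted p up to 0.144). The Pur-alpha call ended without any single SXC array, without wild type replicate 1 or 3, with a replicate block, with unmoderated variances and after removal of the length trend (adjusted p up to 0.141).

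Of the 4 measured ligand genes, all had a positive change in the SXC mutant and 2 rose. Ephrin encodes the membrane-bound ligand of the Eph receptor tyrosine kinase. It read 10.05, 9.90 and 10.06 in the OGA mutant, 10.09, 10.13 and 10.18 in the SXC mutant, and 9.81, 9.85 and 9.79 in wild type. The SXC arrays were highest and the wild-type arrays lowest, with no overlap between any of the groups. The rise in the SXC mutant was 1.24-fold (log2 0.32 with SE 0.06, limma adjusted p = 0.00945), and the OGA difference of 0.19 (SE 0.06) did not pass (adjusted p = 0.975).

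The TGF-beta family ligand gene mav (maverick) read 10.72, 10.68 and 10.79 in the OGA mutant, 11.01, 10.98 and 10.96 in the SXC mutant, and 10.74, 10.70 and 10.54 in wild type. Only the SXC arrays stood clear of the rest, and the rise over wild type was 1.25-fold (log2 0.32 with SE 0.07, adjusted p = 0.0126). The calls of Ephrin and mav were kept in all 20 alternatives. The myostatin-like ligand gene myo (myoglianin) had a level of 7.63, 7.41 and 7.68 in the SXC mutant, against 7.38, 7.10 and 7.10 in wild type (log2 0.38 with SE 0.17, adjusted p = 0.196). The activin-type ligand gene Actbeta read 4.58 to 4.75 in the SXC mutant and 4.58 to 4.68 in wild type, under the 25th percentile of genes.

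Of 5 measured receptor genes 1 rose. CG11155, a gene of the ionotropic glutamate receptor family, read 6.42, 6.56 and 6.22 in the OGA mutant, 6.81, 6.85 and 6.72 in the SXC mutant, and 6.46, 6.37 and 6.35 in wild type. The SXC arrays were above all others, by 1.32-fold over wild type (log2 0.40 with SE 0.08, limma adjusted p = 0.0119). Its other, dimmer probe set gave a log2 difference of 0.02, so the call rests on the probe set with the higher mean.

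The semaphorin receptor gene PlexB had SXC arrays at 10.24, 10.36 and 10.52, against wild-type arrays at 9.95, 10.06 and 10.17 (log2 0.31 with SE 0.13, adjusted p = 0.164). Eph, the receptor gene that pairs with Ephrin, read 9.91, 9.95 and 10.19 in the SXC mutant, against 10.13, 9.99 and 10.01 in wild type (log2 −0.03 with SE 0.08, adjusted p = 0.889). Ligand and receptor thus gave different results, though the difference between the 2 genes was not tested. The kainate receptor gene Ekar had a log2 difference of 0.03 (SE 0.12), and the metabotropic glutamate receptor gene mGluR one of 0.02 (SE 0.09); neither passed, and the groups overlapped.

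Developmental transcription factors formed the largest role group, and 0 of 11 measured members were called in limma. Without adjustment 4 were higher and 0 lower at a p under 0.05. The Pax6 gene toy read 9.56, 9.22 and 9.38 in the SXC mutant, against 9.27, 9.10 and 8.94 in wild type (log2 0.28 with SE 0.10, adjusted p = 0.0953). The zinc-finger gene dati had 5.29, 5.05 and 5.27 in the SXC mutant, against 4.88, 4.84 and 4.996 in wild type (log2 0.30 with SE 0.09, adjusted p = 0.0552), without overlap. The homeodomain gene onecut had a log2 difference of 0.32 (SE 0.10, adjusted p = 0.0699) at levels of 3.81 to 4.35, and the nuclear factor I gene NfI one of 0.19 (SE 0.08, adjusted p = 0.164) at 3.91 to 4.25.

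The other factors were close to wild type or dim. Sox102F, a Sox gene, read 8.87, 8.89 and 8.92 in the SXC mutant, against 9.03, 8.85 and 8.64 in wild type. Mitf, a regulator of lysosomal genes, had the most negative difference of all members (log2 −0.12 with SE 0.10, adjusted p = 0.513). For ci, the transcription factor of the Hedgehog pathway, the levels were 5.48, 5.57 and 5.57 in the SXC mutant, against 5.57, 5.68 and 5.50 in wild type. The other Pax6 gene, ey (log2 0.07), the Pax2 gene sv (−0.0004), the forkhead gene fd102C (0.08) and the zinc-finger homeodomain gene zfh2 (−0.05) did not pass. In all, 10 of the 43 members lay under the 25th percentile of level over genes, and none of these was called. Of the 10, 6 had a positive change. Over all genes 12.9% were called, but 16.9% of those at or above that percentile, so dim genes in general were called less often.

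Among kinases, adaptors and cytoskeletal genes 0 of 5 measured members were called in limma, and 1 was higher at an unadjusted p under 0.05. This gene was Ank, which encodes an ankyrin, which links membrane proteins to spectrin. It read 11.49, 11.07 and 10.96 in the OGA mutant, 11.48, 11.57 and 11.73 in the SXC mutant, and 11.02, 11.07 and 11.36 in wild type. The SXC arrays were above all wild-type arrays, and the log2 difference of 0.44 (SE 0.13) just missed the threshold (adjusted p = 0.0517). Crk, an SH2/SH3 adaptor gene, read 12.19, 12.15 and 12.14 in the SXC mutant, against 11.98, 12.14 and 12.12 in wild type (log2 0.08 with SE 0.07). Zyx, the gene of the focal adhesion protein zyxin, read 11.82, 11.80 and 11.79 in the SXC mutant, against 11.81, 11.79 and 11.70 in wild type (log2 0.04 with SE 0.06). Neither passed, nor did Asator, a tau tubulin kinase gene (0.004 with SE 0.11). The gene bt, of the giant muscle protein projectin, read 11.33, 11.26 and 11.22 in the SXC mutant, against 11.34, 11.45 and 11.30 in wild type (log2 −0.10, adjusted p = 0.443).

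The genes of RNA and protein turnover did not pass (0 of 3 in limma, and 0 at an unadjusted p under 0.05). The gene gw, which encodes the GW182 protein of microRNA silencing, read 12.80, 12.82 and 12.94 in the SXC mutant, against 12.68, 12.67 and 12.69 in wild type (log2 0.17 with SE 0.09), without overlap. The others were Gyf, a GIGYF translation regulator gene (0.02 with SE 0.06), and Rad23, whose protein delivers ubiquitinated proteins to the proteasome (0.10 with SE 0.06). Of the 3 members known by a CG number 2 rose. CG31999 read 11.60, 11.56 and 11.59 in the OGA mutant, 11.85, 11.81 and 11.93 in the SXC mutant, and 11.55, 11.56 and 11.45 in wild type, with SXC above all others (log2 0.34 with SE 0.06, adjusted p = 0.00561, kept in all 20 alternatives). CG1674 read 10.13, 10.04 and 10.09 in the SXC mutant, against 9.91, 9.72 and 9.69 in wild type (log2 0.31 with SE 0.09, adjusted p = 0.0391). Its call ended in 10 alternatives, without any single SXC array or without wild type replicate 2 or 3 among them. CG33941 had a log2 difference of 0.36 (SE 0.17, adjusted p = 0.191).

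**Figure D2:**
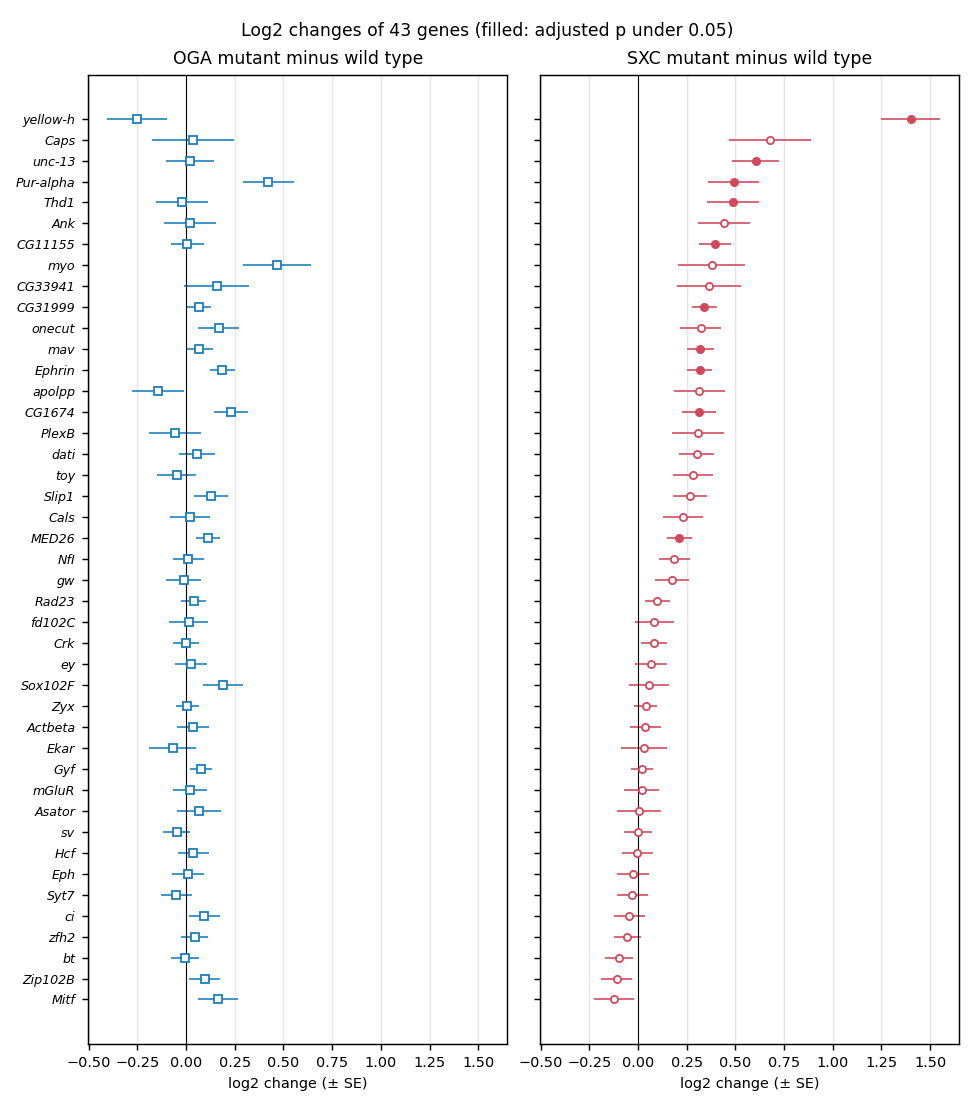
Log2 change (horizontal axis, ± SE) of each of the 43 measured members in the OGA mutant minus wild type (left) and the SXC mutant minus wild type (right), ordered by the change in the SXC mutant; filled symbols passed at an adjusted p under 0.05. In the SXC panel 34 of 43 points lie right of 0 and 10 are filled; in the OGA panel none is filled. Both panels use the same wild-type arrays.

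Seen array by array, the members' shift was present on each SXC array. The median over members of the array value minus the wild-type mean was 0.07, 0.05 and 0.05 on the OGA mutant arrays, 0.17, 0.15 and 0.20 on the SXC mutant arrays, and 0.02, −0.0014 and −0.02 on the wild-type arrays. The same median over all 11982 genes was between −0.02 and 0.01 on every array. Of the 43 members 32, 31 and 35 were above their wild-type mean on the SXC arrays.

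**Figure D3:**
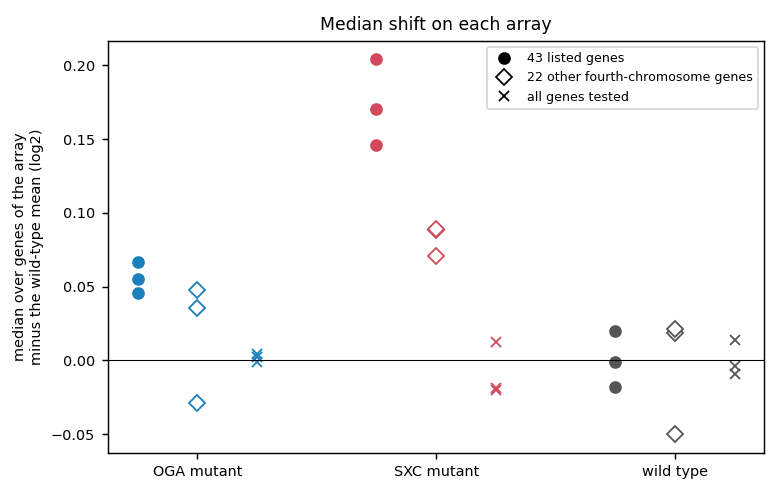
Median over genes of an array's log2 value minus the wild-type mean (vertical axis), for each of the 9 arrays, by group. Circles are the 43 listed genes, diamonds the 22 other tested genes of chromosome 4 and crosses all genes tested; the SXC circles lie at 0.15 to 0.20, the OGA circles at 0.05 to 0.07 and the crosses near 0.

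The 22 tested genes of chromosome 4 outside the list also leaned to the high side in the SXC mutant. Their median change was 0.08, 18 of 22 were positive, 3 rose and 0 fell, and at an unadjusted p under 0.05 there were 6 higher and 0 lower. The risers were eIF4G1, a translation initiation scaffold gene (log2 0.38 with SE 0.11, limma adjusted p = 0.0440), CG31998 (0.27 with SE 0.08, adjusted p = 0.0455) and CG31997 (0.25 with SE 0.07, adjusted p = 0.0462). Together with the members, 13 of 65 tested genes of chromosome 4 were called higher, 20.0%. On the other arms this share was 4.81% for X, 5.35% for 2L, 4.74% for 2R, 5.29% for 3L and 4.94% for 3R. No test was made of these shares, since chromosome 4 was singled out with results known.

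Several called genes were neighbours on the chromosome, which is given as a description. In the order of the 65 tested genes 8 of the 13 called genes had a called gene next to them. CG31999, yellow-h and CG1674 were consecutive, as were Thd1, Pur-alpha and Ephrin, and unc-13 stood beside eIF4G1. In the first 32 genes of the order 9 were called and the median change was 0.20; in the other 33 genes 4 were called and the median was 0.08. Positive changes went the other way, with 23 in the first 32 genes and 29 in the other 33. Of the 43 members, 17 overlap another RefSeq gene, among them Thd1, CG11155, unc-13, yellow-h and CG31999; whether transcripts of the overlapping gene add to their signal was not tested.

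**Figure D4:**
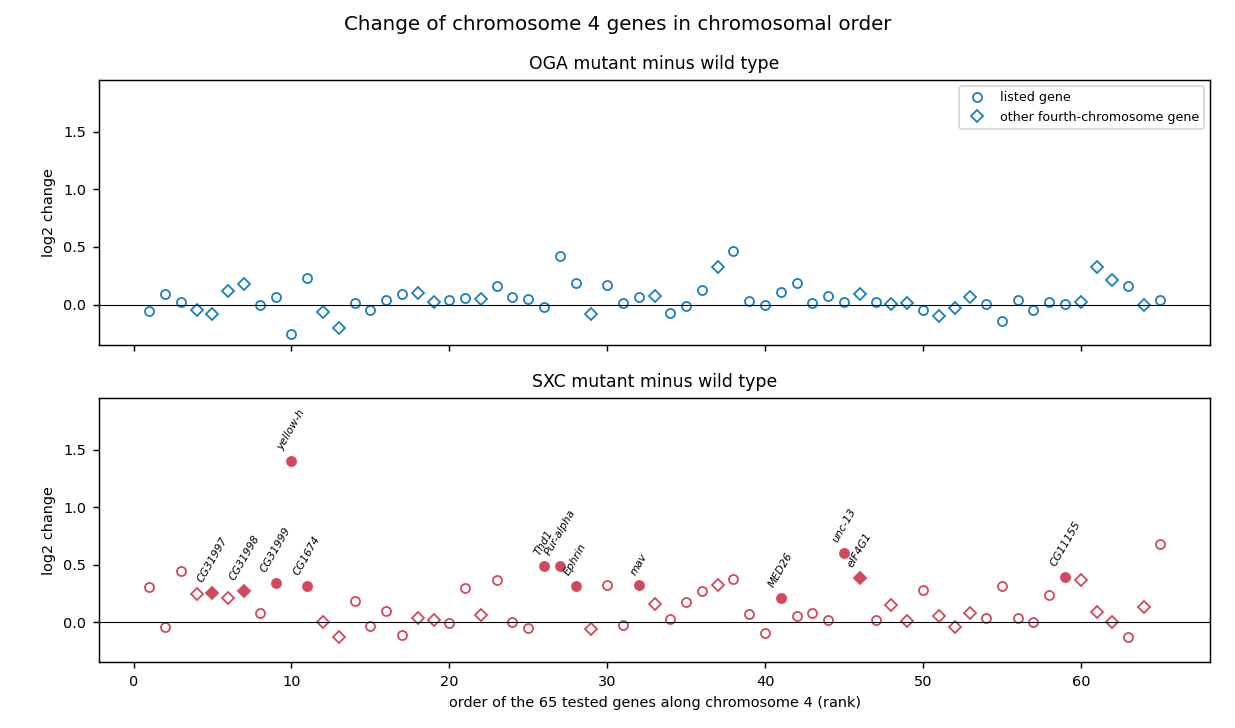
Log2 change (vertical axis) of the 65 tested genes of chromosome 4 by rank along the chromosome (horizontal axis), in the OGA mutant (top) and the SXC mutant (bottom) minus wild type; circles are listed genes, diamonds other genes, and filled symbols passed at an adjusted p under 0.05. The 13 filled genes in the SXC panel are named, and 9 of them lie among the first 32.

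Some transcripts of a broad list of heterochromatin and HP1 family genes, drawn up for chromosome 4 chromatin, were called in the SXC mutant, in both directions. That each of these proteins acts on chromosome 4 was not established here. Of 17 measured genes of this list 2 rose, 4 fell and 11 did not pass (35.3% called, where 12.9% of all genes were), with a median of −0.12. Most of the 17 lay above the median level of all genes, and of all genes above that level 22.3% were called. The list was drawn up with earlier results of these arrays known. Pof read 9.42, 9.48 and 9.54 in the SXC mutant, against 9.86, 9.68 and 9.57 in wild type, without overlap, but did not pass (log2 −0.22 with SE 0.09, adjusted p = 0.143). The HP1a gene read 12.94, 12.96 and 13.04 in the SXC mutant, against 13.15, 13.10 and 13.23 in wild type (log2 −0.18 with SE 0.08, adjusted p = 0.151). Among the called genes with the smallest p, HP1c, an HP1 family gene, fell by 0.43 on the log2 scale (adjusted p = 0.00227), HP4 by 0.35 (adjusted p = 0.00710) and Hmr, a hybrid incompatibility gene, by 0.47 (adjusted p = 0.0132), and wde, the partner of the methyltransferase egg, rose (0.39, adjusted p = 0.0133). The gene egg itself was not analysed here.

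In the OGA mutant no member was called against wild type (0 of 43 in limma), where 0.00835% of all genes were called. Without adjustment 4 members were higher and 0 lower at a p under 0.05 (9.3%), where 3.91% of all genes passed, 308 higher and 160 lower. The changes ran from −0.25 to 0.47, with a median of 0.04 against −0.0005 over all genes, and 32 of 43 were positive. On 5 members (Mitf, MED26, Pur-alpha, Ephrin and Gyf) all OGA arrays were above all wild-type arrays, on 0 below, where 9.04% of all genes did not overlap. With the length trend removed, the median over members was −0.0058, and without OGA mutant replicate 2 or 3 it was 0.0222 or 0.0549; the correlation of the change with log2 length across 11893 genes was 0.26.

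The most positive changes in the OGA mutant were those of myo and of Pur-alpha, given above, and the most negative was that of yellow-h. The gene myo read 7.38, 7.45 and 8.15 in the OGA mutant, against 7.38, 7.10 and 7.10 in wild type (log2 0.47 with SE 0.17, limma adjusted p = 0.975). OGA mutant replicate 3 lay far above the other arrays for it, and the groups overlapped. For yellow-h the log2 difference was −0.25 with SE 0.15 (adjusted p = 0.975). OGA mutant replicate 3 was the lowest of the 9 arrays for yellow-h, unc-13, Thd1, CG11155, PlexB, Ank, Cals, gw and apolpp. The same array was the highest of the 9 for myo, Pur-alpha, Sox102F, CG1674, Mitf, Actbeta and zfh2.

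**Figure D5:**
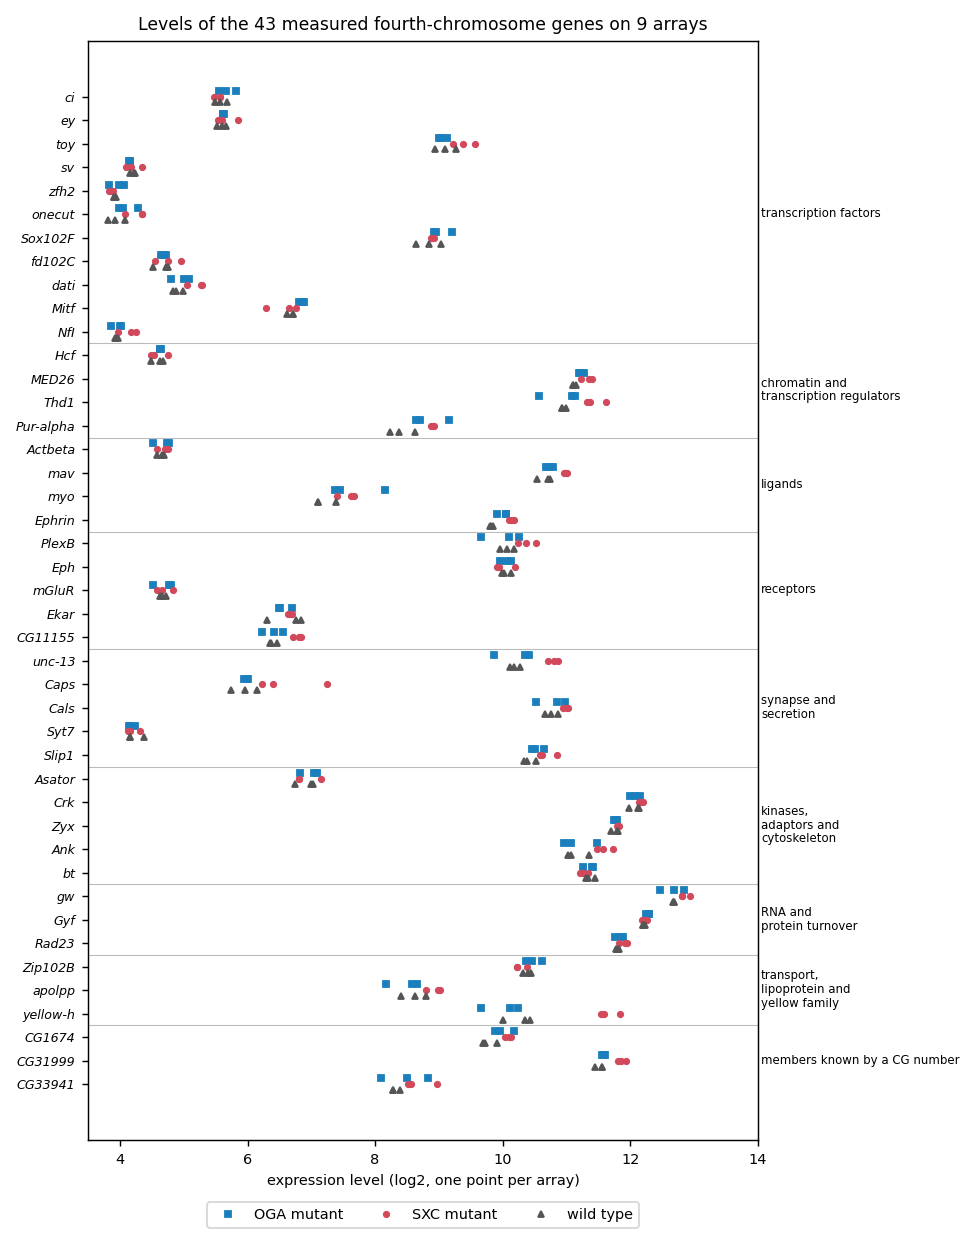
Log2 level (horizontal axis) of each of the 43 measured members on the 9 arrays, 1 point per array, with the OGA mutant, SXC mutant and wild type drawn from top to bottom within each gene and genes grouped by role. The SXC points of yellow-h stand clear of all others, and most genes vary by well under 1 log2 unit across all arrays; levels of different genes cannot be compared.

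Set against each other, the mutants differed in 7 members, all lower in the OGA mutant: 0 were higher and 36 did not pass. Over all genes 11.8% were called between the mutants, 7.79% higher and 3.98% lower in the OGA mutant. At an unadjusted p under 0.05, 2 members were higher and 12 lower (32.6%), where 26.6% of all genes passed, 1959 higher and 1232 lower. The arrays did not overlap in 11 members, 1 higher (Mitf) and 10 lower, where 30.2% of all genes did not overlap. The median over members was −0.08, against 0.01 over all genes.

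The 7 were yellow-h (log2 −1.65 with SE 0.15, limma adjusted p = 0.000395), unc-13 (−0.58 with SE 0.12, adjusted p = 0.0124), CG11155 (−0.39 with SE 0.08, adjusted p = 0.0143), CG31999 (−0.28 with SE 0.06, adjusted p = 0.0163), Thd1 (−0.51 with SE 0.13, adjusted p = 0.0308), mav (−0.25 with SE 0.07, adjusted p = 0.0376) and apolpp (−0.46 with SE 0.13, adjusted p = 0.0454). Of these, 6 were also called in the SXC mutant against wild type; both comparisons use the same SXC arrays. The gene apolpp read 8.58, 8.66 and 8.17 in the OGA mutant, against 8.98, 9.02 and 8.79 in the SXC mutant, without overlap, while the wild-type arrays lay across both. MED26, Pur-alpha, Ephrin and CG1674, called in the SXC mutant against wild type, did not pass between the mutants (adjusted p = 0.351, 0.789, 0.222 and 0.596). Leaving out SXC mutant replicate 1 or 2, or replicate 3 of the OGA mutant, turned the count of 7 into 4, and unmoderated variances into 2. The apolpp call ended in 9 of 20 alternatives and that of mav in 10.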

How the data were processed

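The authors deposited 1 log2 value per probe set and array, positive and with nearly equal distributions on the 9 arrays, as read from the values; per the submitters' processing notes MAS5, RMA and Partek were used, but their roles are not stated in the labels. Of 18952 probe sets, 183 controls were left out, and 13647 had 1 gene in the platform annotation; symbols were updated through Entrez identifiers to the RefSeq table of Release 6 plus ISO1 MT. The highest-mean probe set stood for a gene, which left 11982 genes.

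Group means over all 9 arrays were fitted in R 4.3.3 with limma 3.58.1, with moderated statistics (6 residual and 5.17 prior degrees of freedom) and Benjamini-Hochberg adjustment over all genes. The fit was checked on data with known changes. The members and lists were chosen with earlier results of these data known. Every listed member could be named; of other genes, those called on chromosome 4 and up to 4 called chromatin genes, with Pof and the HP1a gene, and markers that changed or described the tissue. Role groups were assigned from general knowledge. The correlations of deviations between same-numbered arrays ran from −0.22 to 0.29, so numbers were not taken to pair arrays. Promoter motifs were to be searched, but no sequences were used here.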

Additional observations from a re-analysis of the deposited data

How the results depend on the processing

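Each result was recomputed under 20 alternatives, 9 of which left out 1 array. Members called in the SXC mutant against wild type numbered 10, but 18 with array quality weights, 4 with unmoderated variances and 6 after removal of the length trend, and 6 to 15 without 1 array; with a replicate block there were 8, and 7 of the 10 were kept (MED26, Pur-alpha and CG1674 lost). None was called lower in any of these. Their median of 0.19 was 0.27 without low genes, 0.11 with the mean of all probe sets, 0.0561 with the lowest-mean probe set and 0.15 with the length trend removed, and 0.17 to 0.19 without 1 array. Genes called over all genes were 1549, but 2824 with array weights and 820 with no moderation, and 664 to 1751 without 1 array. Between the mutants 7 members were called, but 2 with no moderation and 4 to 8 without 1 array (6 with a replicate block); the median of −0.08 was −0.13 after quantile normalization and −0.0439 with the lowest-mean probe set, and −0.11 to −0.06 without 1 array. Over all genes 1410 were called, but 459 with no moderation and 724 to 1334 without 1 array. In the OGA mutant 0 members were called in any alternative; over all genes the count was 1, but 2 with an intensity trend and robust prior, 0 with no moderation or with the arrays of 2 groups only, and 0 to 1 without 1 array. The members' median of 0.04 was −0.0058 with the length trend removed and 0.0222 to 0.0549 without 1 array. CG1674 changed sign with its lowest-mean probe set (log2 −0.11, adjusted p = 0.42). Except where the alternative's construction shows it, the cause was not tested. No sequence search was run. The dimmest members limit what can be detected.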

Other observations

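Of the members, 7 had more than 1 probe set, and the dimmer ones gave smaller differences between the SXC mutant and wild type. For PlexB, the 4 probe sets in order of mean level gave log2 differences of 0.31, 0.20, 0.13 and −0.08, and on the first 3 all SXC arrays were above all wild-type arrays. Ank gave 0.44 and 0.09, Caps 0.68 and 0.05, and toy 0.28, 0.05 and 0.003. The dimmer CG1674 probe set gave −0.11 and the dimmer dati probe set −0.05.

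Some members that did not pass in the SXC mutant (adjusted p from 0.0517 for Ank to 0.666 for fd102C) were called in some alternatives. With array quality weights 8 more were called, all higher: fd102C, dati, NfI, PlexB, Caps, Slip1, Ank and apolpp. Without OGA mutant replicate 3, whose omission changes the estimate of spread but not the SXC difference, 5 more were called: onecut, myo, PlexB, Cals and Ank.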
